A study of Mus musculus with 12 samples.

Results

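The 6 T helper 1 (Th1) genes Ifng, Tbx21, Eomes, Stat4, Il12rb1 and Il12rb2 were followed through their open chromatin regions in regulatory T cells (Treg) with and without Ikaros, the transcription factor encoded by Ikzf1. The regions were chosen by position only, as every ATAC-seq region of the mouse genome mm9 that overlapped the gene body of 1 of these 6 genes extended by 50 kb on each side. This gave 126 of the 118680 regions of the reference set, with 19 at Ifng, 20 at Tbx21, 12 at Eomes, 37 at Stat4, 21 at Il12rb1 and 17 at Il12rb2. Of these, 46 lay over one of the 6 genes, 37 over another gene within a window and 43 between genes, so that a region in a window need not act on the gene that gave the window its name.

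In ATAC-seq, Tn5 transposase cuts accessible DNA, and the reads piled on a region give its openness. The YFP+ Treg of the WT group were Foxp3-YFP-Cre, and those of the Ikzf1-cko group were Ikzf1-fl-Foxp3-YFP-Cre, in which Cre removes the floxed Ikzf1 allele in cells that express Foxp3. Both genotypes thus carried the Foxp3-YFP-Cre driver, and the labels give the spleen as the source of the Treg. Cells were used directly ex vivo or after 4 hr on plate-bound anti-CD3 and anti-CD28, which engage the T cell receptor and its costimulatory receptor, with 3 libraries of 100000 cells in each of the 4 groups. The methods call the 3 libraries of a group biological replicates and say that sorted Treg were divided between the 2 states, so that the states of a genotype share sorted cells. The age of the mice, any pooling of mice and which libraries share a sort are not given in the sources used here.

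IFN-gamma, the product of Ifng, is the signature cytokine of Th1 cells. IL-12 binds a receptor built of the chains encoded by Il12rb1 and Il12rb2 and activates STAT4, while the T-box factors T-bet (Tbx21) and Eomes drive transcription of Ifng and of other Th1 genes. Treg normally keep this program low but can take up parts of it, and Ikaros, a zinc finger protein that binds DNA with a GGGAA core, is known to restrain Th1 genes in conventional CD4+ T cells.

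Library depth differed between the genotypes. The reads counted on all regions ranged from 5197669 to 8596567 in WT and from 11698967 to 15355521 in Ikzf1-cko libraries ex vivo, and from 4808916 to 6047073 in WT and from 9221901 to 11465957 in Ikzf1-cko libraries after stimulation, so that values are less precise in WT. The strongest 10% of regions held 38.4 to 41.3% of the reads in WT and 42.1 to 43.7% in Ikzf1-cko libraries ex vivo, and 31.2 to 33.1% and 40.4 to 42.5% after stimulation; whether this share moves the fold changes of single regions was tested only through the scalings described at the end. No region overlapped the last exon of Ikzf1, so the counts do not check the genotype. All 6 Treg marker genes and all 4 CD4+ T cell marker genes had a region within 1 kb of the start site in the reference set, and the regions of the Treg markers summed to 132 to 145 FPKM in WT and 143 to 167 FPKM in Ikzf1-cko libraries ex vivo, and to 116 to 162 and 159 to 173 FPKM after stimulation, where FPKM is the reads per kb of region scaled by the library's total over all regions. The Foxp3 region was higher in Ikzf1-cko Treg ex vivo (6.7 FPKM in WT and 11.2 FPKM in Ikzf1-cko, log2 fold change 0.73, adjusted p = 0.0051), and 3 of the 6 Treg marker regions were higher after stimulation and none lower. The sums over markers of other cells were lower but rest on fewer regions, and some moved with the genotype. Single regions overlapped between the lists. In WT Treg ex vivo the Treg marker regions ranged from 6.7 (Foxp3) to 38.9 FPKM (Tnfrsf18). The regions within 1 kb at markers of other cells ranged from 5.02 (Klrb1c) to 18.6 FPKM (Gata3). The regions at the CD8+ T cell markers Cd8a and Cd8b1 (2 of 2 genes) summed to 20.7 to 24.2 FPKM in WT and 10.8 to 14.6 FPKM in Ikzf1-cko Treg ex vivo, and to 20 to 23.4 and 14.7 to 16.1 FPKM after stimulation. Those at NK cell markers (2 of 4 genes) summed to 12.7 to 13.2 FPKM in WT and 7.99 to 9.95 FPKM in Ikzf1-cko Treg ex vivo, and to 14.1 to 16.0 and 8.09 to 10.8 FPKM after stimulation. Within the latter, Prf1 went from 7.93 to 3.66 FPKM ex vivo and Klrb1c was at 5.02 and 5.37 FPKM. The single B cell marker with a region (Ebf1, of 5) was at 12 to 15.3 FPKM in WT and 8.48 to 11.3 FPKM in Ikzf1-cko Treg ex vivo, the myeloid markers (2 of 5) at 15.7 to 18.6 and 17.2 to 18.3 and Gata3 (of 4 Th2 markers) at 16.6 to 21.8 and 15.8 to 26.2. No marker region within 1 kb was at 0 in any library. The part of the CD8+, NK and B cell markers, lower in Ikzf1-cko Treg ex vivo, and of the Treg markers in the results below was not tested. A change in the share of cells with an open region and a change in accessibility per cell cannot be told apart in these bulk libraries.

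The sequences below show the regions on which the genotype results turn, namely the bases before the start site of Ifng, Il12rb2 and Tbx21 and the centres of a Stat4 intron region and of a distal Il12rb2 region that passed both thresholds for genotype ex vivo. They were read from the mm9 genome on the strand of the gene. Capitals mark matches, on either strand, to GGGAA (the Ikaros core), TTCNNNGAA (a STAT palindrome), TCACACC (a T-box site), TGTGGTT (Runx), TGANTCA (AP-1) and GTAAACA (forkhead).
Ifng promoter, chr10:117877803-117878102, plus strand: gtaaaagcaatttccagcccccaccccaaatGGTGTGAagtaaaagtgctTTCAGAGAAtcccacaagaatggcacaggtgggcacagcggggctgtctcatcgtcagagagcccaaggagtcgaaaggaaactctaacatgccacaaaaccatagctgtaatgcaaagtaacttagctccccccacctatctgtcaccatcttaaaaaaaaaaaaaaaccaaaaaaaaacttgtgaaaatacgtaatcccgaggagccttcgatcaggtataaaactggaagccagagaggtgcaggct
Il12rb2 promoter, chr6:67326183-67326425, minus strand: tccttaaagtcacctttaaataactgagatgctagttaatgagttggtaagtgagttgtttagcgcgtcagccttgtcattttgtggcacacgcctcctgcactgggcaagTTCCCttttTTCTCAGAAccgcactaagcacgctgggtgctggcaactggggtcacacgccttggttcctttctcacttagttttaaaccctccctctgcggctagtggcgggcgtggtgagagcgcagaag
Tbx21 promoter, chr11:96976646-96976945, minus strand: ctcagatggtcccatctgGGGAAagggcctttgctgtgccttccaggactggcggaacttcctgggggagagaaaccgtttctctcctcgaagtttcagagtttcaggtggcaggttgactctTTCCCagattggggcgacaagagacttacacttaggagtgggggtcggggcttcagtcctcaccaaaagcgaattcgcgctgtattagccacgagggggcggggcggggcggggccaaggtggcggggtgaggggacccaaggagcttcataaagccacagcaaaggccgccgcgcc
Stat4 intron, chr1:52109860-52110159, plus strand: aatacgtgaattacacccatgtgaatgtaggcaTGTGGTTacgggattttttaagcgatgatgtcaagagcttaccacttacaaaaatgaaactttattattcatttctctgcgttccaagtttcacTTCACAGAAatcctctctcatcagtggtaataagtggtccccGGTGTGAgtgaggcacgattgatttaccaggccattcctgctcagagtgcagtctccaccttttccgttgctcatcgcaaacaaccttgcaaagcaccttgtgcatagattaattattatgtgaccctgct
Il12rb2 upstream region, chr6:67365385-67365684, minus strand: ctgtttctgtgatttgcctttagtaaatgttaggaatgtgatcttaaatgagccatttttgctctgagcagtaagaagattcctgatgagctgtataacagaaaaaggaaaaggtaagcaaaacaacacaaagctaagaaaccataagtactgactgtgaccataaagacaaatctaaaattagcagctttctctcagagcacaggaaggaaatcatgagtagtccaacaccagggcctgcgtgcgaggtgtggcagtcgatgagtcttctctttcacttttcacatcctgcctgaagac

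The Ifng promoter window held a T-box match at bases 32 to 38 and a STAT palindrome at bases 51 to 59, counted from the first base shown, and no GGGAA. The Il12rb2 promoter window held GGGAA at bases 112 to 116 on the other strand and a STAT palindrome at bases 121 to 129, and the Tbx21 window held GGGAA at bases 19 to 23 and 124 to 128. The Stat4 intron window held Runx, STAT and T-box matches, at bases 34 to 40, 128 to 136 and 170 to 176. The distal Il12rb2 window held none of the 6 motifs. As a background, 59.6% of 64245 windows of 300 bases at the centre of tested regions that long and 62.9% of 22380 promoters held GGGAA. The shares were 8.35 and 8.22% for the STAT palindrome, 5.07 and 3.84% for the T-box letters, 9.84 and 5.02% for Runx, 13.7 and 7.11% for AP-1, and 3.75 and 3.46% for forkhead. A match is a description of the letters and not a bound site.

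Ex vivo, chromatin at the Ifng start site and in an intron of Stat4 was more open in Ikzf1-cko than in WT Treg, and chromatin at Il12rb2 was less open. Of the 126 regions, 87 passed the filter of at least 3.6 CPM (counts scaled to the library total) in at least 3 libraries and were tested together with all other regions, 69957 in all. The other 39 were mostly short (median 270 bases against 722 bases for tested members), with at most 70 reads in any library. At a false discovery rate (FDR) under 0.05 in edgeR's quasi-likelihood test, 17 of the 87 regions were higher and 6 were lower in Ikzf1-cko Treg, against 8.78 and 12.7% of all tested regions. With a fold threshold added, an absolute log2 fold change above 1, 3 were higher and 2 lower, against 0.588 and 4.04% of all tested regions. Among the higher ones, the Stat4 intron region OCR_1626 met the filter through Ikzf1-cko libraries only. The median log2 fold change was 0.06 at these loci and -0.13 over all tested regions. TMM scaling put the latter at -0.02 and called 27 regions higher and 5 lower by FDR, against 14.4 and 8.69% of all tested regions under TMM. Thinned to the smallest library, 5 were higher and 4 lower, against 3.38 and 4.15% of all tested regions, and with Ikzf1-cko ex vivo replicate 2 left out the FDR calls were 10 and 5 and those past both thresholds 3. By TMM, DESeq2 or loess scaling the 2 lower regions no longer passed the fold threshold. With the filter on all 12 libraries, 14 of 55 were higher and 4 lower by FDR, against 16 and 11.5% of all regions tested there.

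Ifng had a start-site region that was more open in Ikzf1-cko Treg, past both thresholds ex vivo. The start-site region (OCR_15114, chr10:117877677-117878516, over exon 1 and the bases before it) had 3.89, 4.1 and 3.88 FPKM in the 3 WT ex vivo libraries and 9.54, 8.05 and 10.1 FPKM in the 3 Ikzf1-cko ex vivo libraries. The genotypes did not overlap, and the log2 fold change was 1.21 ± 0.18 (SE, adjusted p = 1.4e-05 by edgeR's quasi-likelihood test), from 17 to 28 reads per library in WT and 93 to 123 in Ikzf1-cko. It passed both thresholds in all 19 alternative fits that held it, with log2 fold changes from 1.03 to 1.33. After stimulation the region had 5.51, 6.09 and 5.2 FPKM in WT and 8.91, 8.6 and 8.72 FPKM in Ikzf1-cko libraries. The genotypes again did not overlap, with a log2 fold change of 0.64 ± 0.19 (adjusted p = 0.0049), which was lost when all libraries were thinned to the smallest one (adjusted p = 0.16). The order of the means was therefore Ikzf1-cko ex vivo (9.22 ± 1.05 FPKM, SD), Ikzf1-cko stimulated (8.74 ± 0.154), WT stimulated (5.6 ± 0.452) and WT ex vivo (3.96 ± 0.124). Neither pair of neighbours of 1 genotype passed the test, with adjusted p = 0.74 in Ikzf1-cko and 0.068 in WT Treg.

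The difference at Ifng was not limited to the start site. Ex vivo, 5 of 15 tested regions were higher in Ikzf1-cko Treg by FDR (33.3%) and none lower, against 8.78 and 12.7% of all tested regions. After stimulation 8 were higher (53.3%) and none lower, against 20.4 and 30.7%. Besides the start site, the ex vivo rises were at OCR_15113, at -5.51 kb from the start site (3.37 FPKM in WT and 6.52 in Ikzf1-cko Treg, log2 fold change 0.90, adjusted p = 0.016), at OCR_15116 over exon 3 (0.59, adjusted p = 0.036), and at OCR_15118 and OCR_15121, 19.5 and 29.67 kb downstream of the start site (0.62 and 0.43). These 4 regions were named after their values were seen. The strongest region of the locus, OCR_15111 at -21.88 kb, also named after its values were seen, had 33.7, 40.1 and 44.0 FPKM in WT and 46.4, 46.7 and 43.1 FPKM in Ikzf1-cko Treg ex vivo, which overlapped, and 28.2, 34.0 and 34.1 against 40.2, 49.1 and 44.4 FPKM after stimulation, which did not. Its log2 fold changes were 0.19 (adjusted p = 0.14) and 0.48 (adjusted p = 3.7e-04). The smallest p after stimulation was at OCR_15117, 17.96 kb downstream, with 15.2, 14.9 and 12.6 FPKM in WT and 24.1, 26.2 and 24.8 FPKM in Ikzf1-cko libraries (log2 fold change 0.81 ± 0.14, adjusted p = 2.3e-05). All reads of the Ifng window together, 19 regions, were 141 ± 9.55 CPM in WT and 170 ± 8.44 in Ikzf1-cko Treg ex vivo, and 124 ± 5.22 and 166 ± 7.94 after stimulation (SD, given without a test).

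**Figure D1:**
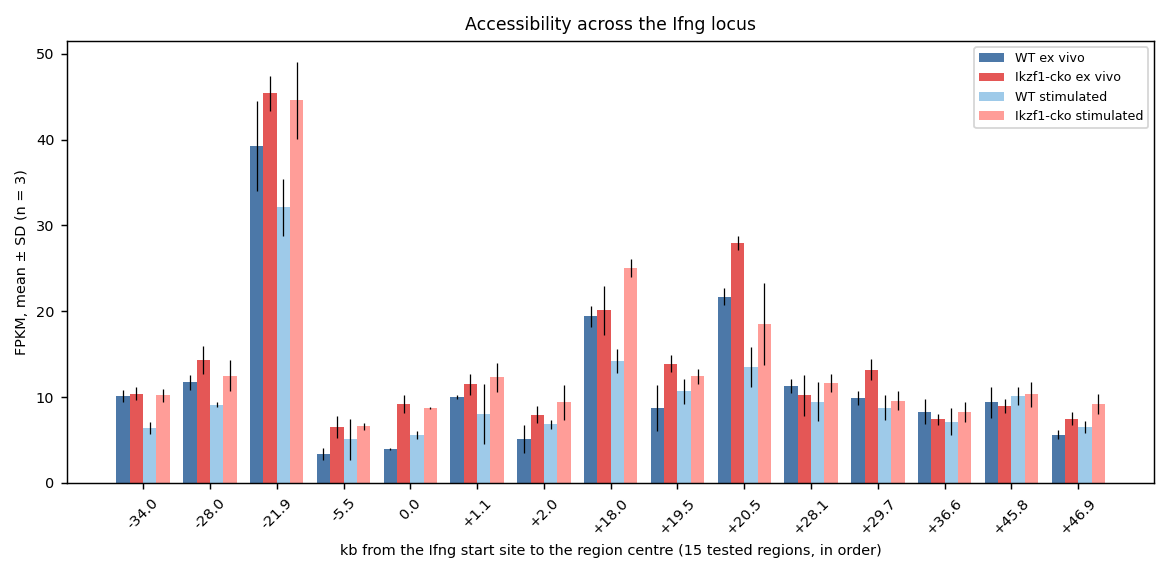
Mean FPKM (± SD over 3 libraries per group) of the 15 tested regions at Ifng, ordered along the x axis by kb from the start site, with bars for WT and Ikzf1-cko Treg ex vivo and stimulated. The start-site region rose from 3.96 FPKM in WT to 9.22 FPKM in Ikzf1-cko Treg ex vivo, while the strongest region, at -21.88 kb, ranged from 32.1 FPKM in stimulated WT to 45.4 FPKM in ex vivo Ikzf1-cko Treg.

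Tbx21, which encodes T-bet, showed a different pattern: its start-site region opened with stimulation and did not pass the genotype test. The region (OCR_20094, chr11:96975852-96977106, over exon 1) had 6.9, 5.81 and 5.28 FPKM in WT and 6.43, 5.39 and 6.95 FPKM in Ikzf1-cko Treg ex vivo, and 9.62, 9.75 and 10.3 FPKM in WT and 8.81, 8.11 and 8.41 FPKM in Ikzf1-cko Treg after stimulation. Every stimulated library was above every ex vivo library. The log2 fold change with stimulation was 0.74 ± 0.16 in WT (adjusted p = 5.2e-04) and 0.44 ± 0.14 in Ikzf1-cko Treg (adjusted p = 0.018). The latter was lost by DESeq2 (adjusted p = 0.12), on thinning (0.25) and when Ikzf1-cko ex vivo replicate 2 (0.12) or Ikzf1-cko stimulated replicate 1 (0.066) was left out. The genotype difference was 0.08 ± 0.15 ex vivo (adjusted p = 0.72) and -0.23 ± 0.15 after stimulation (adjusted p = 0.2), and the difference between the genotypes' responses was -0.31 ± 0.21 (adjusted p = 0.38).

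Of the 20 regions in the Tbx21 window, 9 did not pass the filter, and only 2 of the 6 over the gene were tested. Ex vivo, OCR_20093 in a Tbx21 intron had 3.45 FPKM in WT and 8.37 in Ikzf1-cko Treg. OCR_20089, over a Tbx21 exon, had 3.44 and 1.17 FPKM. Neither overlapped between genotypes, and both were named after their values were seen. With no filter, these and OCR_20085, over an Osbpl7 exon, passed both thresholds. Among the 11 tested regions, 1 differed between genotypes ex vivo and was higher in Ikzf1-cko Treg (9.09%, against 8.78% of all tested regions). It was OCR_20096, at -11.92 kb from the start site, which had 18.2, 15.6 and 15.7 FPKM in WT and 23.4, 21.3 and 23.1 FPKM in Ikzf1-cko Treg (log2 fold change 0.47 ± 0.12, adjusted p = 0.0048, lost on thinning at 0.096). It was also higher after stimulation (0.31, adjusted p = 0.024) and rose with stimulation in both genotypes, by 0.61 in WT and 0.45 in Ikzf1-cko Treg, so that it was highest in stimulated Ikzf1-cko Treg at 31.0 FPKM. The smallest p values for the stimulated genotype difference and for stimulation in WT were at OCR_20100, over the start site of the neighbouring gene Tbkbp1, with 12.1, 9.96 and 8.7 FPKM in WT and 7.15, 6.52 and 6.42 FPKM in Ikzf1-cko stimulated libraries (-0.63 ± 0.15, adjusted p = 0.001, lost on thinning at 0.19). In WT Treg it rose by 0.99 ± 0.17 with stimulation (adjusted p = 2.4e-05). In Ikzf1-cko Treg the smallest p with stimulation was at OCR_20083, over the start sites of Osbpl7 and Gm11574, which went from 8.22 to 13.1 FPKM (0.66 ± 0.12, adjusted p = 2.1e-04, lost on thinning at 0.19). The whole window held 82.3 ± 6.49 and 85.2 ± 1.42 CPM in WT and Ikzf1-cko Treg ex vivo and 122 ± 6.9 and 109 ± 8.95 after stimulation (SD).

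At Eomes, the T-box gene related to Tbx21, no difference between genotypes passed the test ex vivo in 7 tested regions. An unadjusted p under 0.05 was reached by 2 of the 7, against 25239 of all 69957 tested regions. By TMM 1 region, OCR_116236, passed with adjusted p = 0.015. The Eomes start-site region (OCR_116232, chr9:118387171-118387408, exon 1) was too weak to be tested, with 6.47, 12.8 and 5.87 FPKM in WT and 6.84, 7.94 and 10.4 FPKM in Ikzf1-cko Treg ex vivo. After stimulation it had 7.64, 9.98 and 7.86 FPKM in WT and 10.5, 9.41 and 10.3 FPKM in Ikzf1-cko Treg, and the ranges of all 4 groups overlapped, from 8 to 29 reads per library. OCR_116236, 11.53 kb downstream of the start site, gave the smallest p ex vivo (14.5 FPKM in WT, 17.8 in Ikzf1-cko, 0.31 ± 0.12, adjusted p = 0.061) and fell by 0.45 with stimulation in Ikzf1-cko Treg (adjusted p = 0.0042). OCR_116238, in an intron of the neighbouring gene Golga4, had 8.02, 7.34 and 7.2 FPKM in WT and 12.8, 13.1 and 12.6 FPKM in Ikzf1-cko Treg after stimulation (0.76 ± 0.17, adjusted p = 4.9e-04). With stimulation in WT it fell by 0.48 (adjusted p = 0.033), a call lost without any one of WT ex vivo replicates 1 and 3 or WT stimulated replicates 1, 2 and 3, by DESeq2, by loess, on thinning and with the compared libraries alone, with adjusted p from 0.051 to 0.19. The summed reads of the window ranged over the 4 group means only from 75.9 ± 0.769 to 76.6 ± 5.5 CPM (SD), and from 73.6 to 80.2 with TMM scaling.

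Stat4, the transcription factor activated by IL-12, had the most regions, and those that passed the genotype test were mostly higher in Ikzf1-cko Treg. Of 25 tested regions in its window, 8 lay over another gene. By FDR 9 were higher (36.0%) and 2 lower (8.0%) ex vivo, against 8.78 and 12.7% of all tested regions. After stimulation 11 were higher (44.0%) and none lower, against 20.4 and 30.7%. Over the Stat4 gene itself, 6 of 16 were higher (37.5%) and 2 lower (12.5%) ex vivo, and 7 higher (43.8%) and none lower after stimulation. OCR_1626, in an intron 66.02 kb after the start site (chr1:52109806-52110212), had 7.56, 5.21 and 6.86 FPKM in WT and 14.4, 18.4 and 14.7 FPKM in Ikzf1-cko libraries ex vivo. The genotypes did not overlap, with a log2 fold change of 1.29 ± 0.22 (adjusted p = 9.2e-05, lost on thinning at 0.079). No WT library reached 3.6 CPM at OCR_1626. The filter thus kept it through the genotype where it was high, and its genotype tests depend on that. It was left out by the filter on all 12 libraries. After stimulation it had 5.28, 7.63 and 5.62 FPKM in WT and 8.53, 12.5 and 10.3 FPKM in Ikzf1-cko libraries (0.76 ± 0.26, adjusted p = 0.016), a call lost without WT stimulated replicate 1 (0.084), WT stimulated replicate 3 (0.051) or Ikzf1-cko stimulated replicate 2 (0.076). In Ikzf1-cko Treg it fell by 0.60 with stimulation (adjusted p = 0.019), a call lost by DESeq2 (0.11), on thinning (where the value was 0.10) and without Ikzf1-cko ex vivo replicate 2 (0.14) or Ikzf1-cko stimulated replicate 1 (0.11) or 3 (0.062).

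The gene record of Stat4 starts at a distal 5' end that no region overlapped, and the nearest region, OCR_1611 in an intron 10.02 kb downstream, had 5.32, 6.2 and 8.29 FPKM in WT and 9.7, 10.1 and 9.0 FPKM in Ikzf1-cko Treg ex vivo. It did not overlap between genotypes (0.50 ± 0.17, adjusted p = 0.031), but the call was lost by DESeq2, on thinning and without WT ex vivo replicate 1 or 2 or Ikzf1-cko ex vivo replicate 1 or 2, with adjusted p from 0.051 to 0.7. After stimulation it had 7.39, 9.33 and 5.97 FPKM in WT and 9.0, 7.8 and 9.28 FPKM in Ikzf1-cko libraries, which overlapped. OCR_1614, over the first exon of the transcript Stat4-201 and named after its values were seen, had 21.1, 21.4 and 22.1 FPKM in WT and 28.3, 31.7 and 26.0 FPKM in Ikzf1-cko Treg ex vivo (0.41 ± 0.09, adjusted p = 0.0017). It was also higher in Ikzf1-cko Treg after stimulation (0.44, adjusted p = 0.0012) and fell with stimulation in WT (by 0.47) and in Ikzf1-cko Treg (by 0.44). The smallest p with stimulation in WT was at OCR_1619, an intron region 32.6 kb after the start site, which went from 28.1, 25.7 and 32.4 FPKM to 11.6, 19.8 and 13.5 FPKM (-0.95 ± 0.15, adjusted p = 7.1e-06).

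The receptor genes Il12rb1 and Il12rb2 differed from each other. At Il12rb1, whose product pairs in the receptors for IL-12 and IL-23, the start-site region (OCR_108022, chr8:73332160-73332380, exon 1) had 11.3, 15.6 and 9.47 FPKM in WT and 13.0, 12.8 and 11.2 FPKM in Ikzf1-cko Treg ex vivo, and 17.2, 12.4 and 14.1 FPKM in WT and 18.2, 19.8 and 17.8 FPKM in Ikzf1-cko Treg after stimulation. The genotypes overlapped ex vivo (0.03 ± 0.27, adjusted p = 0.94), where 4 of 19 alternatives gave the other sign, and did not overlap after stimulation (0.34 ± 0.27, adjusted p = 0.3, though 1.04 with adjusted p = 0.0025 by loess scaling). None of the tests of this region passed, from 13 to 45 reads per library; its rise with stimulation in Ikzf1-cko Treg was 0.58 ± 0.23 (adjusted p = 0.069, and 0.049 with the compared libraries alone). In the window, 2 of 18 tested regions were higher in Ikzf1-cko Treg ex vivo and none lower, 11.1% against 8.78% of all tested regions, led by OCR_108025, 24.9 kb downstream of the start site (7.34 FPKM in WT, 10.4 in Ikzf1-cko, 0.52 ± 0.16, adjusted p = 0.023). That call was lost on thinning (0.29) and without WT ex vivo replicate 2 (0.13) or 3 (0.067) or Ikzf1-cko ex vivo replicate 2 (0.09). After stimulation 4 were higher and 1 lower, 22.2 and 5.56% against 20.4 and 30.7% of all tested regions, with the smallest p at OCR_108012 over the start site of Mpv17l2 (0.39 ± 0.08, adjusted p = 1.8e-04, but 0.02 with adjusted p = 0.86 by loess scaling).

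Il12rb2, which encodes the chain that confers IL-12 responsiveness, was less open in Ikzf1-cko than in WT Treg at its start site and upstream. Its start-site region (OCR_93802, chr6:67325295-67326425, over exon 1) had 12.8, 13.6 and 12.3 FPKM in WT and 8.75, 7.26 and 7.33 FPKM in Ikzf1-cko Treg ex vivo. After stimulation it had 12.6, 10.0 and 12.3 FPKM in WT and 7.96, 5.04 and 6.79 FPKM in Ikzf1-cko Treg, and the genotypes did not overlap in either state. The log2 fold changes were -0.72 ± 0.14 (adjusted p = 5.4e-04) and -0.82 ± 0.16 (adjusted p = 1.5e-04), and both calls held under all 20 alternatives, from -0.82 to -0.60 and from -1.11 to -0.67. With stimulation the region changed by -0.15 in WT (adjusted p = 0.46) and -0.25 in Ikzf1-cko Treg (adjusted p = 0.24). The order of the means was WT ex vivo (12.9 ± 0.634 FPKM, SD), WT stimulated (11.6 ± 1.41), Ikzf1-cko ex vivo (7.78 ± 0.841) and Ikzf1-cko stimulated (6.59 ± 1.47), in which the difference between the states of 1 genotype did not pass the test.

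Ex vivo, 4 of 11 tested regions in the Il12rb2 window were lower by FDR (36.4%) and none higher, against 12.7 and 8.78% of all tested regions. In the window 10 of 11 had a log2 fold change below 0, as had 43340 of all 69957 tested regions. OCR_93805, at -39.35 kb from the start site (chr6:67364952-67366116), had 10.4, 10.2 and 11.3 FPKM in WT and 5.76, 4.3 and 5.72 FPKM in Ikzf1-cko Treg ex vivo (-1.02 ± 0.15, adjusted p = 1.5e-05). After stimulation it had 9.65, 9.1 and 9.46 FPKM in WT and 6.42, 4.63 and 6.59 FPKM in Ikzf1-cko Treg (-0.67 ± 0.17, adjusted p = 0.0014). Both calls were lost on thinning, with adjusted p = 0.07 and 0.18. OCR_93796, in an intron (chr6:67252061-67252784), had 10.1, 10.6 and 9.32 FPKM in WT and 5.49, 5.62 and 3.54 FPKM in Ikzf1-cko Treg ex vivo (-1.01 ± 0.21, adjusted p = 7.4e-04), and 7.08, 4.29 and 7.18 against 4.19, 5.48 and 3.61 FPKM after stimulation (-0.49 ± 0.25, adjusted p = 0.11). It was thus separate between genotypes ex vivo and overlapped after stimulation, and in WT it fell by 0.69 with stimulation (adjusted p = 0.016), a call lost without WT ex vivo replicate 2 (0.055) or WT stimulated replicate 2 (0.11). Both ex vivo falls lay just past the fold threshold and passed it in 14 of 20 and 13 of 19 alternatives, with log2 fold changes from -1.10 to -0.77 and from -1.12 to -0.83.

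The Il12rb2 window also holds the start site of Serbp1, which encodes an mRNA-binding protein, whose region OCR_93791 was the strongest of the 17 at 77.8 FPKM in WT and 82.0 FPKM in Ikzf1-cko Treg ex vivo and gave the smallest p of the window for genotype after stimulation, 55.7 against 80.0 FPKM (0.52 ± 0.07, adjusted p = 5.1e-07, but 0.08 with adjusted p = 0.29 by loess scaling). Without the regions over Serbp1 the window held 96.5 ± 7.75 CPM in WT and 67.1 ± 3.8 in Ikzf1-cko Treg ex vivo, and 83.7 ± 1.66 and 65.1 ± 1.57 after stimulation (SD). With them the sums were 234 ± 15.4 and 212 ± 5.97 ex vivo and 182 ± 5.61 and 206 ± 0.923 after stimulation, so that the order of the genotypes after stimulation depended on Serbp1. The Stat4 window held 292 ± 13.8 and 349 ± 23.7 CPM in WT and Ikzf1-cko Treg ex vivo and 246 ± 16.5 and 310 ± 5.07 after stimulation, and the Il12rb1 window 371 ± 17.1 and 395 ± 12.2, and 434 ± 24.8 and 482 ± 19.2.

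**Figure D2:**
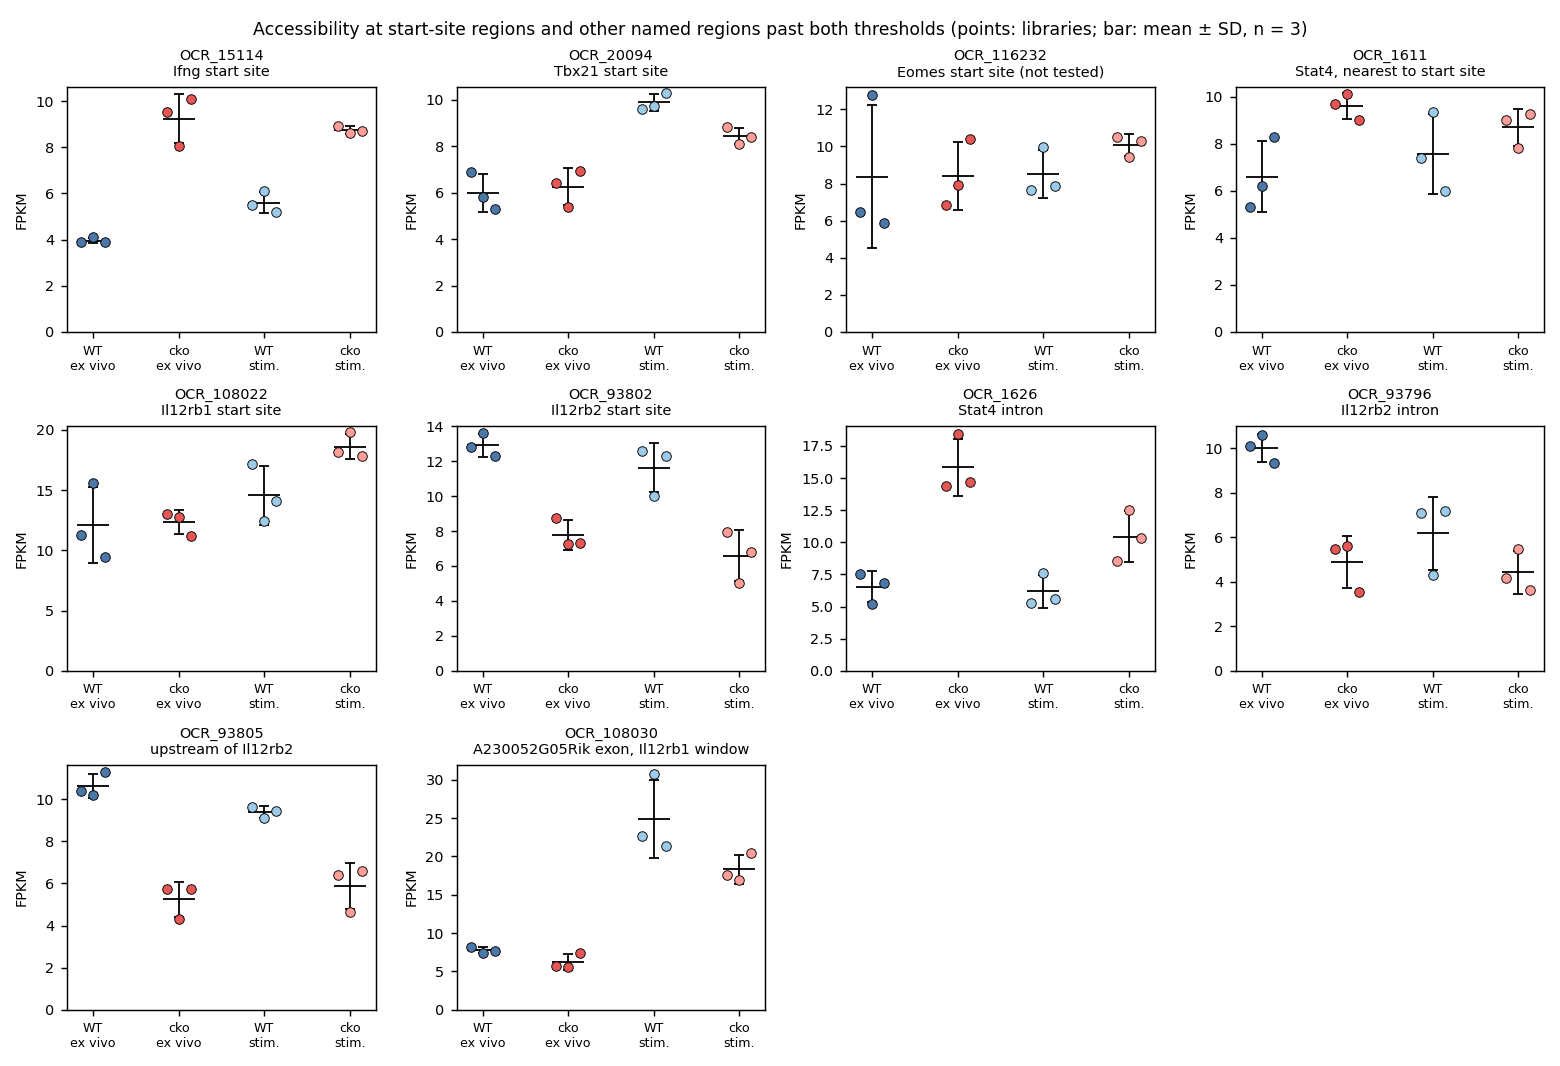
FPKM in each library (points) with the mean ± SD of 3 libraries per group, for the start-site region of each gene (for Stat4 the region nearest to the start site) and 4 other regions past both thresholds, in WT and Ikzf1-cko (cko) Treg ex vivo and stimulated (stim.). The Ifng start-site region was at least 8.05 FPKM in all Ikzf1-cko libraries and at most 6.09 FPKM in WT, and the Il12rb2 start-site region was at most 8.75 FPKM in Ikzf1-cko and at least 10.0 FPKM in WT libraries.

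**Figure D3:**
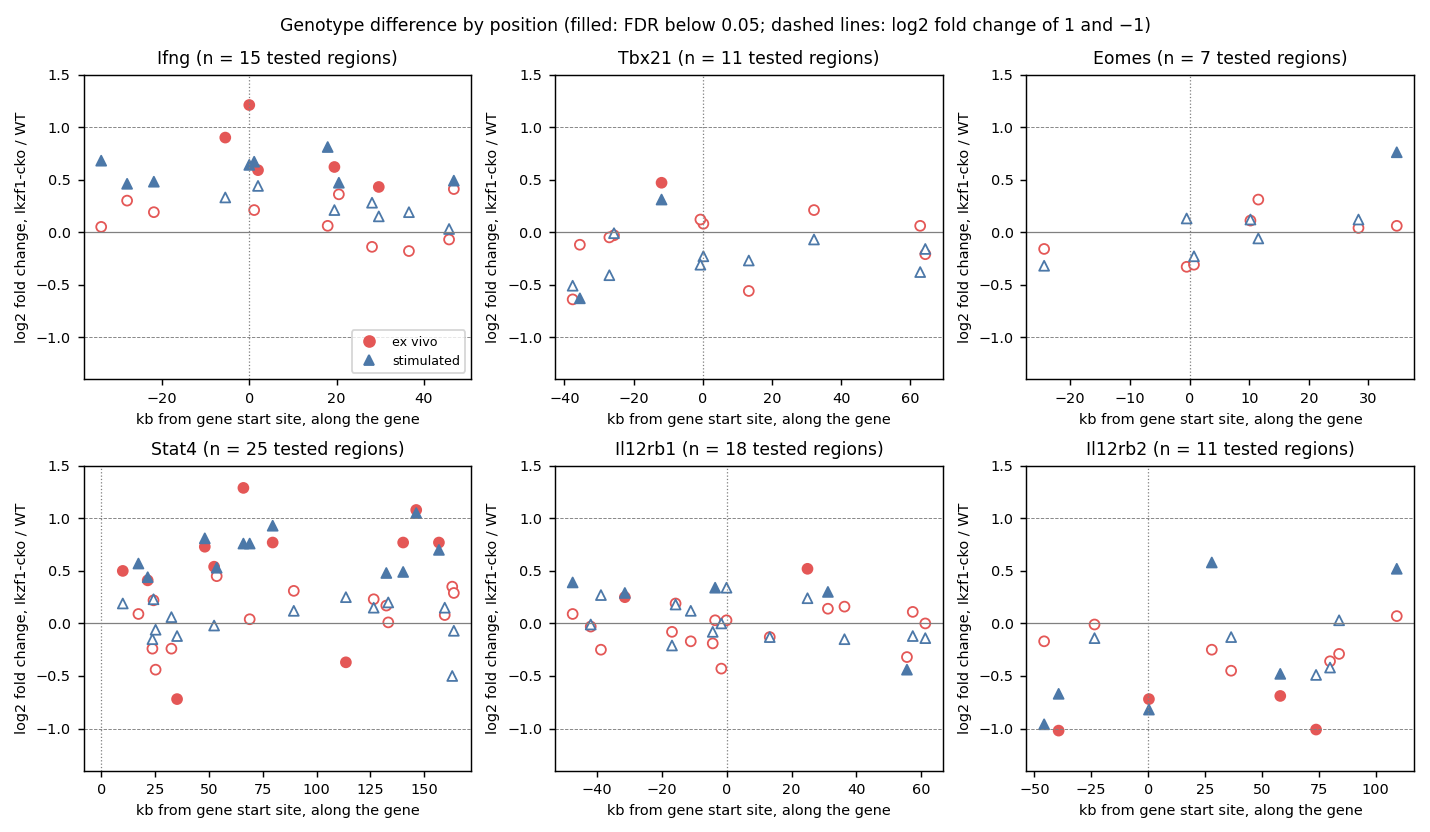
Log2 fold change of Ikzf1-cko over WT for the 87 tested regions against their distance in kb from the gene's start site, in 6 panels, with circles for ex vivo and triangles for stimulated Treg, filled where the FDR was under 0.05. All filled points at Ifng lie above 0, and at Il12rb2 all filled ex vivo points lie below 0.

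After stimulation the genotype difference covered more regions with smaller folds. By FDR, 27 of 87 regions were higher and 6 were lower in Ikzf1-cko Treg, against 20.4 and 30.7% of all tested regions. With the filter on all 12 libraries, 22 of 55 were higher and 4 lower, against 36.7 and 9.86% of all regions tested there. The contrasts with all tested regions by FDR thus depend on the filter. This holds also where those shares are set beside Ifng, Stat4, Il12rb2 or the further pathway genes below. An unadjusted p under 0.05 was reached by 35 of the 87, against 39391 of all 69957 tested regions. Past both thresholds were 1 higher and none lower, against 1.16 and 20.2% of all tested regions. The latter share was 3.46% by loess scaling and 1.05% of the regions left by the filter on all 12 libraries, so that the contrast with no lower member depends on these settings. Without WT stimulated replicate 1 the FDR calls were 15 higher and 7 lower, and none passed both thresholds. Thinned to the smallest library they were 15 higher and 2 lower. The median log2 fold change was 0.13 at these loci and -0.11 over all tested regions. The lower regions were 4 of 11 at Il12rb2 (36.4%), 1 of 11 at Tbx21 and 1 of 18 at Il12rb1. The share of all tested regions was 30.7%, and 9.86% with the filter on all 12 libraries. At Il12rb2, 2 of 11 were higher, the Serbp1 start-site region and OCR_93800, in an Il12rb2 intron 27.94 kb after the start site and named after its values were seen. OCR_93800 had 8.14, 11.7 and 10.2 FPKM in WT and 14.9, 14.5 and 15.3 FPKM in Ikzf1-cko Treg after stimulation, with no overlap (0.58 ± 0.16, adjusted p = 0.0038, lost on thinning at 0.11 and without WT stimulated replicate 1 at 0.053), and overlapped ex vivo (-0.25, adjusted p = 0.2). Another of the lower Il12rb2 regions, OCR_93807 at -45.73 kb, had 7.04, 6.48 and 8.48 FPKM in WT and 4.23, 4.15 and 2.94 FPKM in Ikzf1-cko Treg after stimulation (-0.96 ± 0.28, adjusted p = 0.0051). It reached 3.6 CPM in the WT stimulated libraries only. The filter thus kept OCR_93807 through the group where it was high, and its test and its place among the 4 lower regions depend on that.

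The genotype differences in the 2 states were measured in separate libraries made from shared sorted cells, and are given side by side. Of the 87 regions, 23 passed FDR ex vivo and 33 after stimulation, 13 passed in both with the same direction and none with opposite directions, and the log2 fold changes had Pearson's r = 0.64 across regions, which share libraries and sorted cells and are not independent. The share passing in both states and r were not computed over all tested regions. Whether this likeness of the states is particular to these loci was therefore not tested.

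**Figure D4:**
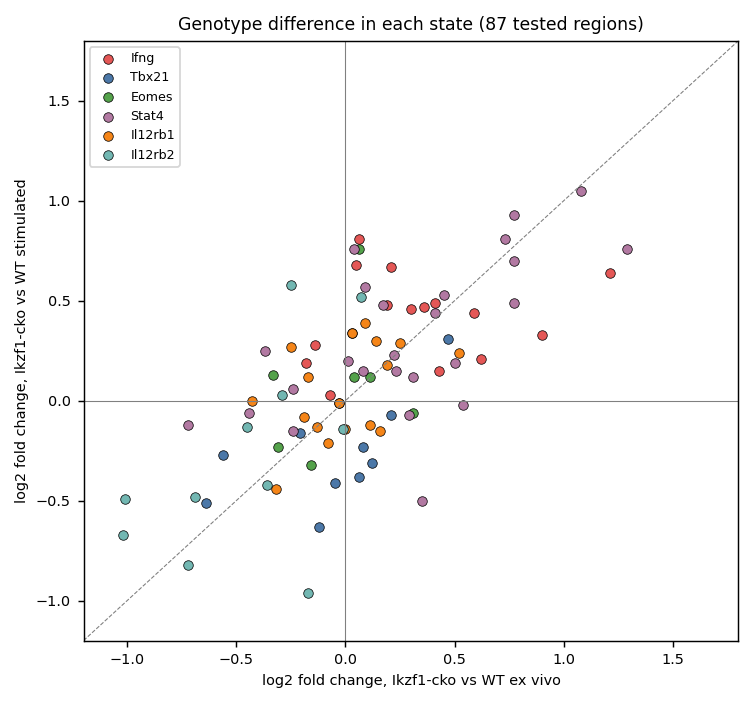
Log2 fold change of Ikzf1-cko over WT in stimulated Treg (y axis) against that in ex vivo Treg (x axis) for the 87 tested regions, coloured by locus, with a dashed line of equality. Il12rb2 regions (teal) lie mostly at the lower left, and Ifng (red) and Stat4 (purple) regions mostly at the upper right.

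With stimulation, the regions that rose lay mostly in the Tbx21 and Il12rb1 windows and those that fell mostly in the Stat4 window. In WT Treg, 11 of 87 regions rose and 17 fell by FDR, against 26.9 and 20.7% of all tested regions. Of 11 tested regions at Tbx21 5 rose (45.5%), of 18 at Il12rb1 5 rose (27.8%, close to the share of all tested regions) and of 25 in the Stat4 window 1 rose. Those that fell were 9 of 25 in the Stat4 window (36.0%), 4 of 15 at Ifng, 3 of 11 at Il12rb2 and 1 of 7 at Eomes. Past both thresholds was 1 rise and no fall, against 17.7 and 2.32% of all tested regions. An unadjusted p under 0.05 was reached by 34 of the 87, against 37454 of all 69957 tested regions. By FDR, loess scaling gave 17 rises and 9 falls, thinning 7 and 8, and leaving out WT stimulated replicate 1 gave 9 and 11. With the filter on all 12 libraries, 7 of 55 rose and 15 fell, against 10.7 and 35.7% of all regions tested there. In Ikzf1-cko Treg 16 rose and 10 fell, against 12 and 11.5% of all tested regions, with TMM scaling giving 9 and 12, thinning 6 and 3 and leaving out Ikzf1-cko ex vivo replicate 2 giving 9 and 7. There 9 of 18 tested regions rose at Il12rb1 (50.0%) and 4 of 11 at Tbx21 (36.4%), and 7 of 25 fell in the Stat4 window. Past both thresholds was again 1 rise and no fall, against 3.02 and 0.632%. An unadjusted p under 0.05 was reached by 36 of the 87, against 25340 of all 69957 tested regions. Most rises by FDR lay outside the 6 genes. In WT, 2 were over one of the 6 genes, 5 over another gene and 4 between genes. In Ikzf1-cko Treg the counts were 2, 9 and 5. Of the 18 tested regions in the Il12rb1 window, 12 lay over other genes and 2 over Il12rb1.

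The rise past both thresholds was the same region in both genotypes. OCR_108030, over an exon of A230052G05Rik at the far end of the Il12rb1 window (chr8:73387666-73388182), went from 8.19, 7.43 and 7.65 FPKM to 22.7, 30.7 and 21.3 FPKM in WT and from 5.67, 5.62 and 7.44 FPKM to 17.6, 16.9 and 20.4 FPKM in Ikzf1-cko Treg. The log2 fold changes were 1.69 ± 0.19 (adjusted p = 5.6e-08) and 1.57 ± 0.17 (adjusted p = 6.1e-08), and both passed both thresholds in all 19 alternatives that held the region. At Ifng the smallest p with stimulation was at OCR_15119, 20.52 kb downstream, which fell from 20.6, 22.3 and 22.3 FPKM to 12.7, 16.1 and 11.6 FPKM in WT (-0.69 ± 0.18, adjusted p = 0.0019) and from 27.1, 28.7 and 28.2 FPKM to 16.8, 14.8 and 23.9 FPKM in Ikzf1-cko Treg (-0.58 ± 0.13, adjusted p = 0.0016), calls lost on thinning (0.15 and 0.1). At Il12rb2 the smallest p was at the Serbp1 start-site region in WT (-0.49 ± 0.07, adjusted p = 1.7e-06), and at OCR_93807 in Ikzf1-cko Treg (-0.57 ± 0.26, adjusted p = 0.11, and -0.81 with adjusted p = 0.013 by loess scaling).

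**Figure D5:**
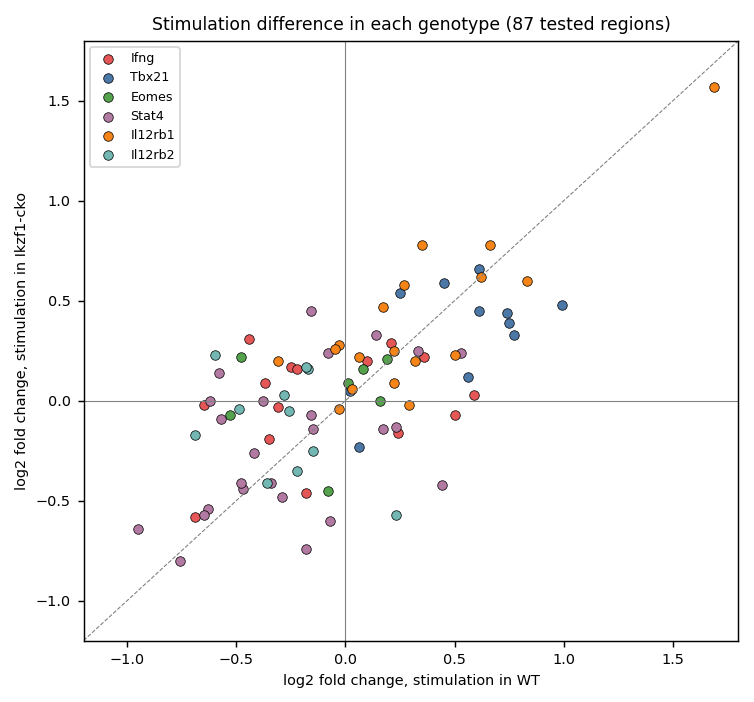
Log2 fold change with stimulation in Ikzf1-cko Treg (y axis) against that in WT Treg (x axis) for the 87 tested regions, coloured by locus, with a dashed line of equality. The point at the upper right is OCR_108030 at 1.69 and 1.57.

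The response to stimulation differed between genotypes in 5 of 87 regions by FDR (5.75%), all with a higher log2 fold change in Ikzf1-cko Treg. This was near the 5.66% of all tested regions in that direction, with 1.82% in the other. Not 1 region passed both thresholds, against 0.579 and 1.4% of all tested regions, and TMM, DESeq2 and loess scaling gave 0 as well. An unadjusted p under 0.05 was reached by 18 of the 87, against 17108 of all 69957 tested regions. By FDR under loess scaling 1 region had a lower response and none a higher one. At the Stat4 intron region OCR_1627, the libraries went from 23.5, 22.7 and 29.5 to 15.5, 20.5 and 15 FPKM in WT Treg and from 26.0, 29.3 and 23.0 to 27.9, 29.0 and 29.5 FPKM in Ikzf1-cko Treg (difference of log2 fold changes 0.72 ± 0.19, adjusted p = 0.017). It fell in WT (-0.58, adjusted p = 0.0022), with no overlap between the states, and overlapped in Ikzf1-cko Treg (0.14, adjusted p = 0.39).

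The Th1 pathway was widened to 20 further genes, among them the IFN-gamma receptor chains, Janus kinases, IL-18 receptor chains, chemokine receptors and Runx3, through regions within 5 kb of each gene body. Outside the 6 loci these held 139 regions, of which 110 were tested in the same fit. Ex vivo, 18 were higher and 10 lower in Ikzf1-cko Treg by FDR, 16.4 and 9.09% against 8.78 and 12.7% of all tested regions, with a median log2 fold change of -0.01. Past both thresholds 2 were higher and 2 lower, against 0.588 and 4.04% of all tested regions. The higher ones were OCR_117767 near Cxcr3, the receptor that Th1 cells use to follow IFN-gamma-induced chemokines (6.6 FPKM in WT and 15.1 in Ikzf1-cko Treg, 1.20 ± 0.19, adjusted p = 2.2e-05), and OCR_1305 at Il18rap, which encodes a chain of the IL-18 receptor (1.02 ± 0.15, adjusted p = 1.4e-05). Both lower ones were at Jak1, a kinase of many cytokine receptors, OCR_80546 and OCR_80548 (-1.08 and -1.25). These regions were named because so few passed, after their values were seen. At Socs1, a feedback inhibitor of cytokine signalling, 4 of 4 tested regions were higher in each state. At Gzmb, which encodes granzyme B, the start-site region was lower in Ikzf1-cko Treg ex vivo (-0.91, adjusted p = 0.0078). After stimulation 28 were higher and 8 lower in Ikzf1-cko Treg, 25.5 and 7.27% against 20.4 and 30.7% of all tested regions. With stimulation 15 rose and 39 fell in WT, 13.6 and 35.5% against 26.9 and 20.7%, and 11 rose and 21 fell in Ikzf1-cko Treg, 10.0 and 19.1% against 12 and 11.5%. A single gene, Jak1, held 33 of the 110 tested regions. It gave 21 of the 39 falls in WT (63.6% of its regions) and 10 of the 21 in Ikzf1-cko Treg (30.3%).

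Over all 12 libraries, the start-site regions most like that of Ifng among 11687 start-site regions, by Pearson's r of log2(CPM + 1), included those of Psme2 and Rnf31 (r = 0.96) and of Cd40 (0.95). Those most like Tbx21 were Nfix, Tmem106c and the shared region of C2 and Ehmt2 (each 0.96), and those most like Il12rb2 were Fn3k (0.94), Enpp4 and Gm16747 (0.93 each). For Stat4, where the region nearest to the start site (OCR_1611) was used, they were Pomp and Prcc (0.91 each) and Jazf1 (0.90). For Il12rb1 they included Idh3b and Camk2n2 (0.88 each), and for the weak Eomes region they were Gga3 and Mrps7, Ncf4 (0.80 each) and Chic1 (0.79). These likenesses describe 12 libraries that share depth and groups.

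Motif content was compared as a description between the 17 regions that were higher, the 6 that were lower and the 64 that passed in neither direction ex vivo, over their whole lengths (medians 887, 930 and 623 bases). GGGAA was in 15, 4 and 51 of them, at 3.35, 3.05 and 3.2 matches per kb. The Runx letters were in 8 of 17, 0 of 6 and 9 of 64, the T-box letters in 7, 1 and 10, the AP-1 letters in 7, 4 and 14, the STAT palindrome in 5, 2 and 10, and the forkhead letters in 3, 1 and 7. The Ifng start-site region held no GGGAA, 2 Runx matches, 1 T-box match and 1 STAT palindrome over its 840 bases, and the Il12rb2 start-site region held 7 GGGAA and 2 STAT palindromes over 1131 bases.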

How the data were processed

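ATAC-seq of 12 libraries was used, grouped by their labels. Per the methods, alignment was with bowtie2, duplicates and blacklisted regions were dropped, and MACS2 peaks of each replicate were merged by the authors where present in at least 2 replicates. The processing notes give mm9, whereas the methods print a human build; the deposited chromosomes are those of the mouse. The authors deposited, per region and library, a count of de-duplicated reads without normalization, and an FPKM value, which is the count per kb and scaled to the library total. A second deposited table holds the authors' own comparisons (fold changes, F statistics, p-values and FDR of called regions) and was not used.

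Counts were tested with edgeR 4.0.16 in R 4.3.3 (quasi-likelihood F test, Benjamini-Hochberg adjustment over the 69957 regions that reached 3.6 CPM in 3 or more libraries), in 1 model of 4 group means with library totals as scaling and 24.4 prior degrees of freedom. All adjusted p-values in the text are from this test unless another setting is named. A region was called past both thresholds at FDR < 0.05 and an absolute log2 fold change above 1. The SE of a log2 fold change is its size over the root of F. Alternatives were TMM, DESeq2 1.42.0, loess against abundance (limma 3.58.1), other filters, the compared libraries alone, a replicate block, thinning to 4808916 reads, FDR alone and leaving out each library. On simulated counts for the ex vivo genotype comparison, 197 of 200 regions given a true log2 fold change of 2 in size were recovered among 69957, with 6 false calls. The simulation gave all regions the same spread and the groups no difference in signal share. It held no changes near the fold threshold, so its figures do not describe calls there. The study's background normalization needs reads that region counts do not hold.

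Named regions are, for each gene, the start-site region (or the nearest one) and that with the lowest p in each pairwise comparison, all regions past both thresholds, and those said to be named after their values were seen, and some regions and genes that these rules name are not reported here. The genes, members and gene lists were chosen with earlier results of these data known. Gene positions and sequences came from the mm9 genome and its GENCODE annotation, and other steps used Python 3.11.15 with pandas 2.3.3, NumPy 2.4.6 and Matplotlib 3.10.9.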

Additional observations from a re-analysis of the deposited data

Results flagged for a closer look

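For 5 regions the change with stimulation differed between WT and Ikzf1-cko Treg by the interaction term of edgeR's quasi-likelihood test at FDR < 0.05, given here as the log2 fold change in Ikzf1-cko minus that in WT Treg. They were 5.75% of the 87 tested members, near the 5.66% of all tested regions in that direction. With the filter on all 12 libraries, 6 of 55 members passed in that direction, against 14.7% of all regions tested there. At OCR_15117, 17.96 kb downstream of the Ifng start site, the difference was 0.75 (adjusted p = 0.012), with -0.44 in WT and 0.31 in Ikzf1-cko Treg. At the Stat4 intron region OCR_1627 it was 0.72 (adjusted p = 0.017), with -0.58 and 0.14. At OCR_1632, over exon 17 of the transcript Stat4-201, it was 0.62 (adjusted p = 0.035), with -0.62 and 0.00. At OCR_93791, over the start site of Serbp1, it was 0.45 (adjusted p = 0.0025), with -0.49 and -0.04. At the Il12rb2 intron region OCR_93800 it was 0.83 (adjusted p = 0.017), with -0.60 and 0.23.

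None of the 5 calls held under every alternative. By loess scaling against abundance all 5 had an adjusted p above the threshold, from 0.053 to 0.14, and on thinning all but OCR_93791 did. Without WT ex vivo replicate 3 the adjusted p was 0.055 at OCR_15117, 0.11 at OCR_1627 and OCR_1632 and 0.05 at OCR_93800. Across all alternatives their differences kept their sign, from 0.18 to 0.96.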

How the results depend on the processing

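The number of regions past both thresholds ex vivo was 5, and 2 with a filter on all 12 libraries, where 55 members were tested, 8 with no filter, where 126 were tested, 3 on thinning and 23 by FDR alone. After stimulation it was 1, and 2 by DESeq2, by loess and with no filter, 4 on thinning and 33 by FDR alone; the calls by loess and those on thinning shared 0 regions with the 1 of the main setting. For stimulation in WT it was 1, and 3 by loess, 0 with the filter on all 12 libraries, 5 with no filter, 2 on thinning and 28 by FDR alone. For stimulation in Ikzf1-cko it was 1, and 0 with the filter on all 12 libraries, 3 with no filter, 4 on thinning and 26 by FDR alone. For the interaction it was 0, and 1 with no filter and 5 by FDR alone. The filter on all 12 libraries left OCR_108030 untested, and the cause of the other changes was not tested. Leaving out 1 library at a time gave 3 to 6 ex vivo (3 without Ikzf1-cko ex vivo replicate 2), 0 to 3 after stimulation (0 without WT stimulated replicate 1, 2 without WT stimulated replicate 2 or 3 or Ikzf1-cko stimulated replicate 2, and 3 without Ikzf1-cko stimulated replicate 1), 1 to 3 for stimulation in WT (2 without WT ex vivo replicate 1 or WT stimulated replicate 3, and 3 without WT ex vivo replicate 2 or WT stimulated replicate 2), 1 for stimulation in Ikzf1-cko and 0 for the interaction.

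Over 57 pairs of a named region and a comparison, the alternatives gave 1039 values on the same side of the FDR threshold, 71 that lost it, 5 that gained it and 1 reversal. The reversal was OCR_1626 with stimulation in Ikzf1-cko Treg, at 0.10 on thinning (adjusted p = 0.9). DESeq2 scaling moved the median log2 fold change of all tested regions after stimulation from -0.11 to -0.00, as loess did, and ex vivo TMM, loess and DESeq2 moved it from -0.13 to -0.02, -0.01 and -0.04. With the replicate number as a block the counts past both thresholds were 5, 1, 1, 1 and 0, and the block ended 1 of the named calls, OCR_1632 in the interaction (adjusted p = 0.05). Deviations of libraries from their group means had correlations from -0.36 to 0.28 for the same number and from -0.38 to 0.40 for different numbers. This check covers all regions and includes pairs across genotypes, so it cannot tell whether the numbers mark shared sorts. Apart from the block, the stimulation tests took the libraries as unpaired. The start-site regions of Eomes and Il12rb1 rested on 8 to 29 and 13 to 45 reads per library, which limits their precision.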
